A study of Mus musculus with 74 samples.

Results

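A set of 5 genes of the CCR4 and CCR8 chemokine axes was followed across 20 groups of sorted mouse immune cells: the receptors Ccr4 and Ccr8, and the ligands Ccl17, Ccl22 and Ccl1. They were taken by name as 5 of the 49480 gene rows of a raw count table, and each value is given in CPM, the count of the gene divided by the total count of its library and multiplied by 1000000. Chemokines are small secreted proteins that steer leukocytes carrying the matching receptor. CCL17 and CCL22 are the ligands of CCR4, and CCL1 is the main ligand of CCR8. CCL17 and CCL22 are made mostly by mature dendritic cells and by macrophages exposed to type 2 cytokines, whereas CCL1 is known chiefly as a product of activated T cells. CCR4 is carried by skin-homing, T helper 2 and regulatory T cells, and CCR8 marks effector regulatory T cells, above all those inside tumors.

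The 74 libraries were Smart-seq2 libraries, each made from total RNA of 1000 double-sorted cells, from C57BL/6J mice that all carried MC38 tumors. MC38 is a mouse colon carcinoma line, grown here under the skin, and tumor and spleen were taken on day 10 from mice aged 12 or 3 months, so the spleens too came from tumor-bearing animals. The gates were CD45+TCRb+CD4+CD25+ (called regulatory T cells), CD45+TCRb+CD4+CD25- (conventional CD4 T cells), CD45+TCRb+CD8+ (CD8 T cells), CD45+CD11b+CD11c+MHCII+ (dendritic cells) and CD45+CD11b+F4/80+ (macrophages), each in tumor and spleen at both ages. A group held 4 libraries, except 3 in tumor dendritic cells at 12 months, in spleen dendritic cells at each age and in 3-month conventional CD4 T cells of the spleen, and 2 in tumor conventional CD4 T cells at 3 months.

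Library totals ran between 1652812 and 9115858 counts, and the shallowest profile still had counts for 16576 genes. Nothing in the labels says whether replicate libraries of a group came from separate mice, so the p-values measure the spread between libraries, which may be technical. In bulk samples of this kind, fewer cells of a type and less RNA per cell cannot be told apart. Marker RNA was shared between gates: regulatory T cell markers (summed over Foxp3, Il2ra, Ikzf2 and Ctla4, all with counts) reached between 1026 and 2580 CPM in tumor conventional CD4 T cells, against 4035 to 5129 CPM in tumor regulatory T cells. The 8 macrophage markers summed to between 1875 and 11150 CPM in tumor dendritic cells and to 7365 to 14370 CPM in tumor macrophages, and T cell markers were at or below 268 CPM in every dendritic cell and macrophage library, against 3625 to 7965 CPM in T cells. A pair of spleen dendritic cell libraries titled 3 months carry an age tag of 12 months, and their titles were followed.

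Both receptor genes lie on chromosome 9 of the mm10 build. Ccr4 spans chr9:114490316-114504916 on the minus strand and Ccr8 spans chr9:120092114-120094906 on the plus strand, and neither shares exon bases with another annotated gene. The 250 bases before each start site in RefSeq (build GRCm38.p6) are shown because both genes were followed across the same T cell groups. They were read for 4 motifs on both strands: the AP-1 site TGANTCA, the STAT sites TTCNNNNGAA (the spacing that STAT6 prefers) and TTCNNNGAA, and the NF-kB consensus. Ccr4 covers chr9:114496545-114496794 and Ccr8 covers chr9:120091883-120092132, each written 5′ to 3′ on the strand of the gene, with a motif match in capitals. The RefSeq start sites differ from the starts of the spans above. The Ccr4 window therefore lies wholly inside its span, and the Ccr8 window reaches into its own.

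Ccr4: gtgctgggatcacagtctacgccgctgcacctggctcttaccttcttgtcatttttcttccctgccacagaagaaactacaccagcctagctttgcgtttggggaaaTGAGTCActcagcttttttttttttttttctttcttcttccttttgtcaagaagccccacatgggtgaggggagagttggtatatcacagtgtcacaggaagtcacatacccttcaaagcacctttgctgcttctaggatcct

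Ccr8: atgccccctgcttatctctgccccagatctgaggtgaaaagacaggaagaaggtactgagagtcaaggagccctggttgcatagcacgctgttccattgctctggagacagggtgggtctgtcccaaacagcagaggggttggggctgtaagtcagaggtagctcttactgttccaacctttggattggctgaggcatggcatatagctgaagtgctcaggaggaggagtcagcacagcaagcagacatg

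The capitals in Ccr4 mark TGAGTCA, an AP-1 match that begins 143 bases before the start site, and 6.75% of 32851 mouse promoters of the same length hold one. The Ccr8 window held none of these letters. A match describes the letters of the window and is not a binding site shown by these data.

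Ccr8 had its highest level in regulatory T cells of the tumor. It read 381.3, 269.5, 333.6 and 285.5 CPM in tumor regulatory T cells at 12 months and 357.0, 325.0, 387.0 and 343.6 CPM at 3 months. In spleen regulatory T cells it read 41.14, 53.11, 45.0 and 60.92 CPM at 12 months and 22.75, 33.39, 28.14 and 44.12 CPM at 3 months. The tumor and spleen libraries did not overlap, and the lowest tumor library stood above every spleen library of every cell type. Over both ages Ccr8 averaged 335.3 ± 41.8 CPM in tumor regulatory T cells and 41.1 ± 12.7 CPM in spleen regulatory T cells (SD, n = 8 each), a log2 fold change of 3.30 with a standard error of 0.13 (edgeR quasi-likelihood test, Benjamini-Hochberg adjusted p = 1.1e-14).

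Ccr4 was also higher in tumor regulatory T cells, by a smaller factor and with more spread. It read 57.93, 65.28, 54.37 and 130.8 CPM in the tumor at 12 months and 49.5, 54.17, 50.86 and 208.0 CPM at 3 months. The spleen regulatory T cells read 27.22, 20.37, 17.62 and 35.54 CPM at 12 months and 13.57, 20.66, 6.254 and 46.15 CPM at 3 months. Replicate 4 was the highest library of all 4 of these groups, and the tumor and spleen libraries still did not overlap. The log2 fold change of tumor over spleen was 2.08 with a standard error of 0.41 (edgeR, adjusted p = 0.000501), and without replicate 4 of every T cell and macrophage group it was 1.91 (adjusted p = 3.75e-07). Both receptors passed the test in regulatory T cells, a comparison in which 53.5% of 13345 tested genes were called at an adjusted p under 0.05, so a call by itself was common. Tumor over spleen, 25.9% of all genes tested in regulatory T cells rose.

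Conventional CD4 T cells showed the same direction at lower levels of Ccr8. Ccr8 read 86.95, 88.33, 121.3 and 44.62 CPM in tumor conventional CD4 T cells at 12 months and 127.9 and 132.1 CPM at 3 months. The spleen libraries read 8.893, 11.53, 11.22 and 17.65 CPM at 12 months and 3.477, 3.354 and 2.795 CPM at 3 months. Every tumor library was above every spleen library, and the log2 fold change was 4.10 with a standard error of 0.23 (edgeR, adjusted p = 3.22e-13). Between the ages, regulatory T cell markers were higher where Ccr8 was higher: the 3-month tumor libraries had marker sums of 2580 and 2253 CPM, and the 12-month libraries had 1026 to 1810 CPM. Library by library this did not hold. At 12 months the tumor library with the most Ccr8 (121.3 CPM) had the lowest sum, and that with the least (44.62 CPM) had the highest. The part of these markers in the Ccr8 level of the conventional CD4 gate was not tested. The ratio of Ccr8 to Foxp3, the master transcription factor of regulatory T cells, was 0.311 to 1.59 in tumor conventional CD4 T cells and 0.216 to 0.341 in tumor regulatory T cells, both as ratios of CPM values in the same library.

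Ccr4 read 72.88, 38.12, 63.7 and 86.42 CPM in tumor conventional CD4 T cells at 12 months and 25.32 and 55.61 CPM at 3 months. The conventional CD4 T cells of the spleen read 14.52, 8.521, 10.68 and 17.89 CPM at 12 months and 5.374, 10.98 and 8.786 CPM at 3 months. The tumor libraries again lay entirely above those of the spleen, and the log2 fold change was 2.33 with a standard error of 0.26 (edgeR, adjusted p = 7.54e-08). With Ccl1, described below among the ligands, 3 of 3 tested genes of the axes were called up in conventional CD4 T cells, where 27.2% of 14661 genes were called in either direction and 16.0% rose.

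CD8 T cells had Ccr8 in the tumor and next to none in the spleen. Ccr8 read 56.34, 36.49, 18.35 and 12.93 CPM in tumor CD8 T cells at 12 months and 81.71, 55.6, 44.08 and 39.53 CPM at 3 months. The 8 spleen CD8 libraries together held 10 Ccr8 counts, in 3 of them, and none exceeded 0.744 CPM. All tumor libraries were above all spleen libraries, with a log2 fold change of 7.41 and a standard error of 0.51 (edgeR, adjusted p = 5.46e-10). Foxp3 was between 0.638 and 9.33 CPM in the tumor CD8 libraries, and the ratio of Ccr8 to Foxp3 there was 1.39 to 83.0.

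Ccr4 in tumor CD8 T cells read 3.13, 2.582, 0.9576 and 9.329 CPM at 12 months and 0.9845, 2.042, 0.3555 and 12.43 CPM at 3 months. The spleen CD8 libraries were all at 0 at 12 months and read 0.4319, 0, 4.76 and 1.222 CPM at 3 months. These libraries overlapped between tumor and spleen. Summed counts were 169 in the tumor and 40 in the spleen, a ratio of 4.14 scaled by library totals (95% interval 2.92 to 6.0, which covers counting error only). The edgeR test called it (adjusted p = 0.00289), but without replicate 4 of every T cell and macrophage group the adjusted p was 0.0518. All 3 genes tested in CD8 T cells (Ccr4, Ccr8 and Ccl1) were called up, where 42.1% of 13285 genes were called in either direction.

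**Figure D1:**
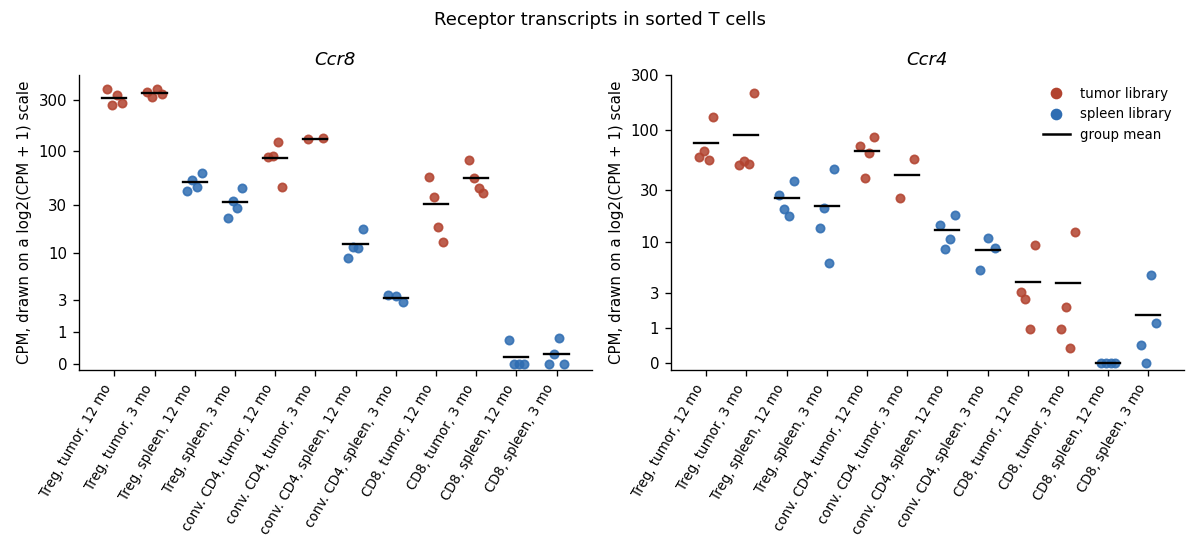
Ccr8 and Ccr4 in CPM, drawn on a log2(CPM + 1) scale, in every T cell library of tumor and spleen at 12 and 3 months, 1 point per library, with a bar at the group mean. Ccr8 is between 269.5 and 387.0 CPM in tumor regulatory T cells and at or below 60.92 CPM in all spleen groups, and in Ccr4 replicate 4 gives the separate high points at 130.8 and 208.0 CPM.

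Within one tissue the regulatory T cells exceeded the conventional CD4 T cells in Ccr8. Over both ages, Ccr8 averaged 335.3 ± 41.8 CPM in tumor regulatory T cells (SD, n = 8) and 100.2 ± 33.6 CPM in tumor conventional CD4 T cells (SD, n = 6), with no overlap and a log2 fold change of 1.70 with a standard error of 0.17 (edgeR, adjusted p = 1.56e-10). In the spleen, Ccr8 averaged 41.1 ± 12.7 CPM in regulatory T cells (n = 8) and 8.42 ± 5.55 CPM in conventional CD4 T cells (n = 7), a log2 fold change of 2.47 with a standard error of 0.19 (edgeR, adjusted p = 2.19e-13). The difference between regulatory and conventional cells was therefore smaller on the log2 scale in the tumor than in the spleen, by 0.77 with a standard error of 0.25 (tumor minus spleen -0.77, edgeR, adjusted p = 0.0398). That difference was again -0.77 without the pair of 3-month spleen conventional CD4 libraries that had the highest shares of ribosomal protein counts, which leaves 1 library in that group. It lost the call in 18 of 29 fits that left out 1 library.

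For Ccr4 the same comparison did not pass the test in either tissue. Ccr4 averaged 83.9 ± 56.9 CPM in tumor regulatory T cells and 57.0 ± 22.5 CPM in tumor conventional CD4 T cells (SD, n = 8 and 6), with overlapping libraries and a log2 difference of 0.72 whose nominal 95% interval, by a normal quantile, ran between -0.06 and 1.51 (edgeR, adjusted p = 0.146). In the spleen it averaged 23.4 ± 12.7 CPM in the regulatory gate and 11.0 ± 4.14 CPM in the conventional CD4 gate, a log2 difference of 0.94 with a standard error of 0.41 (edgeR, adjusted p = 0.0616). DESeq2 called the spleen difference (adjusted p = 0.0398). The tumor and spleen differences were -0.22 apart with a standard error of 0.56 (edgeR, adjusted p = 0.877).

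Across the 3 genes tested between regulatory and conventional CD4 T cells, Ccr8 was called up and Ccl1 down in the tumor, where 44.5% of 16607 genes were called, and Ccr8 was called up in the spleen, where 45.1% were called. The tumor minus spleen difference was called for Ccr8 and Ccl1, against 9.55% of all genes. In order of group means, Ccr8 ran downwards through tumor regulatory T cells at 3 months (353.2 CPM) and 12 months (317.5 CPM), tumor conventional CD4 T cells at 3 months (130.0 CPM) and 12 months (85.3 CPM), tumor CD8 T cells at 3 months (55.23 CPM), spleen regulatory T cells at 12 months (50.04 CPM) and 3 months (32.1 CPM) and tumor CD8 T cells at 12 months (31.03 CPM). The regulatory T cell groups of the tumor overlapped each other and stood apart from the next group down, while the tumor CD8 groups overlapped the spleen regulatory T cells. Ccr4 ran through tumor regulatory T cells at 3 months (90.64 CPM) and 12 months (77.11 CPM), tumor conventional CD4 T cells at 12 months (65.28 CPM) and 3 months (40.47 CPM), spleen regulatory T cells at 12 months (25.19 CPM) and 3 months (21.66 CPM) and the conventional CD4 T cells of the spleen at 12 months (12.9 CPM) and 3 months (8.379 CPM), and each of these groups overlapped the next one down. Per kilobase of exon, so that the receptors can be set side by side, tumor regulatory T cells had 285.4 CPM of Ccr8 and 27.12 CPM of Ccr4, and spleen regulatory T cells had 34.95 CPM of Ccr8 and 7.572 CPM of Ccr4.

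Outside T cells the receptors were close to absent. Tumor macrophages read 1.56, 0.639, 0 and 0 CPM of Ccr8 at 12 months and 2.688, 0.218, 0 and 1.893 CPM at 3 months. Spleen dendritic cells had no Ccr8 count. Ccr4 averaged 0.9606 CPM in spleen macrophages at 12 months and 0.5143 CPM at 3 months. These levels were too low for a test.

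The CCR4 ligands Ccl22 and Ccl17 lie on chromosome 8 within 66.4 kb, on the same strand, with 2 annotated genes between them: Cx3cl1, which encodes the chemokine fractalkine, and a processed pseudogene. Ccl22 spans chr8:94745590-94751699, Cx3cl1 spans chr8:94772009-94782427 and Ccl17 spans chr8:94810453-94812036 in mm10. The promoters are shown because the ligand genes are neighbours and their levels can be set side by side in the same dendritic cell libraries. In RefSeq (build GRCm38.p6) the 250 bases before the start site are chr8:94810203-94810452 for Ccl17 and chr8:94745434-94745683 for Ccl22, both written 5′ to 3′ on the plus strand with motif matches in capitals. The Ccl22 window reaches into the span given above, because its RefSeq start site lies further along the gene.

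Ccl17: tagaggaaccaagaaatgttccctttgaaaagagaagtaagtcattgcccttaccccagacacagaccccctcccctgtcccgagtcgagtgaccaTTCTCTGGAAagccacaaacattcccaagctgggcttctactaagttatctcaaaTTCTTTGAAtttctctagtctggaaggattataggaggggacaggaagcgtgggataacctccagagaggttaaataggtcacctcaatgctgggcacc

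Ccl22: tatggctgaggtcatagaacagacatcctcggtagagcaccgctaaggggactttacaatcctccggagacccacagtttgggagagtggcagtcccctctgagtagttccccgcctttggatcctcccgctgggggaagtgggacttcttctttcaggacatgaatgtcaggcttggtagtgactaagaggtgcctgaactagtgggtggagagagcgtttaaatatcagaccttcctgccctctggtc

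In Ccl17 the first capitals mark TTCTCTGGAA, a TTCNNNNGAA match that begins 154 bases before the start site, and the second mark TTCTTTGAA, a TTCNNNGAA match that begins 99 bases before it. Of 32851 promoters, 5.85% hold a TTCNNNNGAA match, 7.02% a TTCNNNGAA match and 3.9% a match to the NF-kB consensus. The search found no match in the Ccl22 window, nor in that of Ccl1, which says nothing about the factors. This holds for the written form of each motif that was searched, and a looser form of the NF-kB consensus could match.

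Ccl22 was read in dendritic cells of both tissues and was higher in the tumor. In tumor dendritic cells it read 200.1, 100.6 and 338.6 CPM at 12 months and 101.8, 152.8, 120.9 and 226.7 CPM at 3 months. In spleen dendritic cells it read 12.34, 31.54 and 23.82 CPM at 12 months and 11.04, 48.55 and 25.64 CPM at 3 months. All tumor libraries were above all spleen libraries. Over both ages it averaged 177.4 ± 86.0 CPM in tumor dendritic cells (SD, n = 7) and 25.5 ± 13.8 CPM in spleen dendritic cells (SD, n = 6), a log2 fold change of 3.23 with a standard error of 0.35 (edgeR with sex as a covariate, adjusted p = 2.97e-05). Markers of other cells moved with this contrast: B cell markers summed to 14.89 to 39.69 CPM in tumor dendritic cells and 636.6 to 3852 CPM in spleen dendritic cells, and macrophage markers to 1875 to 11150 CPM in the tumor gate and 361.7 to 508.5 CPM in the spleen gate. Their part in the ligand levels was not tested.

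In dendritic cells, Ccl17 was read almost only in the tumor. It read 50.4, 37.82 and 200.0 CPM in tumor dendritic cells at 12 months and 21.91, 39.27, 57.17 and 55.54 CPM at 3 months. The 6 spleen dendritic cell libraries together held 4 counts of Ccl17, none of them at 3 months. Summed counts were 2571 in the tumor and 4 in the spleen, a ratio of 459 scaled by library totals (95% interval 179 to 1690), and edgeR called the difference (adjusted p = 7.58e-06). Both CCR4 ligands were called up in tumor dendritic cells, where 47.1% of 13981 genes were called in either direction and 24.4% rose. Per kilobase of exon, Ccl17 had 128.4 ± 117.3 CPM and Ccl22 had 76.28 ± 36.97 CPM in tumor dendritic cells (SD, n = 7), levels that overlap within their spread.

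The macrophage gate held little of either ligand. Its spleen libraries stood apart by their markers: neutrophil markers summed to 9.688 to 730.4 CPM in tumor macrophages and 3482 to 38350 CPM in spleen macrophages, macrophage markers to 7365 to 14370 CPM in those of the tumor and 932.3 to 1569 CPM in those of the spleen, and B cell markers to 9.463 to 44.98 CPM in the tumor gate and 781.8 to 3222 CPM in the spleen gate. Their part in the comparisons of this gate, by tissue and with dendritic cells, was not tested. Ccl22 read 15.34, 1.439, 6.801 and 0.9568 CPM in tumor macrophages at 12 months and 0, 0.4354, 0.9451 and 7.3 CPM at 3 months. The spleen macrophages read 2.947, 0, 0 and 1.571 CPM at 12 months and 2.43, 1.508, 0.4583 and 0.6005 CPM at 3 months. Tumor and spleen libraries overlapped, and the log2 difference of 1.80 with a standard error of 0.86 did not pass the test (edgeR, adjusted p = 0.0885), where 51.7% of 12876 genes were called. With no filter on low counts the same difference was called (1.82, adjusted p = 0.00643). Ccl17 summed to 13 counts in the 8 tumor macrophage libraries and to 9 in the 8 spleen macrophage libraries. In T cells no group mean was above 0.98 CPM for Ccl17 or 0.512 CPM for Ccl22.

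Dendritic cells exceeded macrophages in both ligands in the tumor, by a log2 fold change of 7.81 with a standard error of 0.63 for Ccl17 (edgeR, adjusted p = 7.59e-10) and of 6.02 with a standard error of 0.63 for Ccl22 (adjusted p = 8.06e-08). Both were called there, against 45.9% of 15258 genes. In the spleen only Ccl22 was called of the 2 tested, by 4.52 with a standard error of 0.70 (edgeR, adjusted p = 1.22e-05), where 52.9% of genes were called. Ccl17 had 4 counts in spleen dendritic cells and 9 in spleen macrophages, a ratio of 0.516 scaled by library totals (95% interval 0.116 to 1.85; edgeR, adjusted p = 0.378). The tumor minus spleen difference was called for Ccl17 (edgeR, adjusted p = 0.000536) and not for Ccl22 (1.49 with a standard error of 1.01, adjusted p = 0.319), against 23.3% of all genes called. The Ccl17 call rests on few spleen counts, and without spleen macrophage replicate 3 at 3 months its adjusted p was 1.0.

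**Figure D2:**
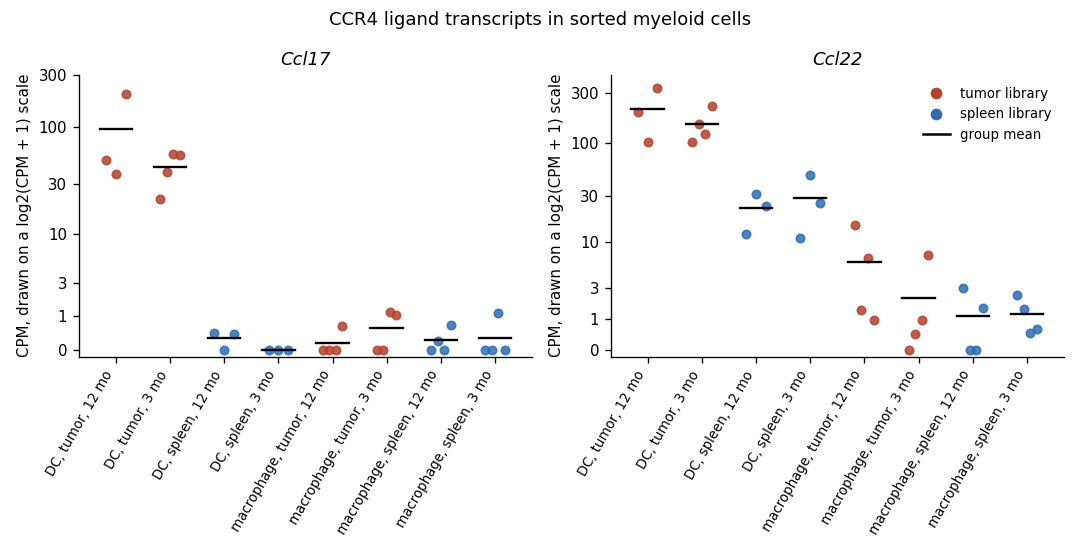
Ccl17 and Ccl22 in CPM, drawn on a log2(CPM + 1) scale, in every dendritic cell and macrophage library of tumor and spleen at 12 and 3 months, 1 point per library, with a bar at the group mean. Tumor dendritic cells hold 21.91 to 200.0 CPM of Ccl17 and 100.6 to 338.6 CPM of Ccl22, and spleen dendritic cells hold Ccl22 at 11.04 to 48.55 CPM with nearly no Ccl17.

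Tumor dendritic cell replicate 2 of both ages had the most macrophage marker RNA (11150 CPM at 12 months and 10170 CPM at 3 months, where the other 5 libraries had 1875 to 4611 CPM). Its Ccl22 was the lowest of the 12-month group, at 100.6 CPM, and the second highest of the 3-month group, at 152.8 CPM, and its Ccl17 was the lowest at 12 months, at 37.82 CPM, and the second lowest at 3 months, at 39.27 CPM. Without these libraries the tumor over spleen log2 fold change of Ccl22 was 3.48 (edgeR, adjusted p = 1.24e-07). Without the pair of spleen libraries whose age labels conflict it was 3.62 (adjusted p = 9.02e-04).

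The gene between the ligands, Cx3cl1, was also higher in the tumor. It averaged 5.16 ± 2.52 CPM in tumor dendritic cells (SD, n = 7) and 0.336 ± 0.293 CPM in spleen dendritic cells (SD, n = 6), a log2 fold change of 4.37 (edgeR, adjusted p = 9e-05).

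**Figure D3:**
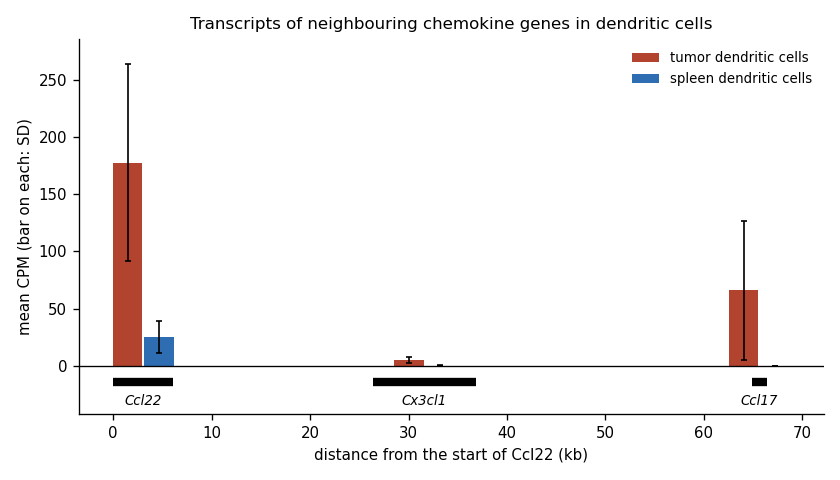
Mean CPM (linear axis) of Ccl22, Cx3cl1 and Ccl17 in tumor and spleen dendritic cells over both ages, drawn at the genes' distance in kb from the start of Ccl22, with the gene bodies as black bars and error bars of 1 SD over libraries whose lower end is cut at 0; gene length is not taken into account, so only bars of the same gene are comparable. Tumor dendritic cells hold 177.4 CPM of Ccl22, 5.16 CPM of Cx3cl1 and 66.0 CPM of Ccl17, and spleen dendritic cells hold 25.5 CPM, 0.336 CPM and 0.134 CPM of the same genes.

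Ccl1, the CCR8 ligand, had its highest levels in tumor conventional CD4 and CD8 T cells. It spans chr11:82176657-82305690 on the minus strand of mm10 in GENCODE M21, where its exons form 12 blocks. Its RefSeq promoter window, chr11:82179813-82180062, lies wholly inside that span, so the RefSeq gene starts well within it. Ccl1 read 35.0, 33.88, 122.6 and 19.26 CPM in tumor conventional CD4 T cells at 12 months and 91.29 and 67.37 CPM at 3 months. The 7 spleen conventional CD4 libraries held 7 counts, against 1428 in the tumor, a ratio of 276 scaled by library totals (95% interval 134 to 688; edgeR, adjusted p = 1.32e-07).

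In tumor CD8 T cells Ccl1 read 40.96, 48.71, 9.895 and 4.029 CPM at 12 months and 50.54, 27.69, 32.17 and 58.28 CPM at 3 months. The 8 spleen CD8 libraries held 1 count, against 1436 in the tumor, a ratio of 1410 scaled by library totals (95% interval 252 to 55600; edgeR, adjusted p = 5.06e-07). No tumor library of either T cell type overlapped the spleen. Among myeloid cells, tumor dendritic cells at 12 months held 20 Ccl1 counts, between 0.4925 and 1.875 CPM in all 3 libraries, and none at 3 months, while tumor macrophages held 3 counts at 12 months and 1 at 3 months.

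Tumor regulatory T cells had next to no Ccl1: 0, 0, 5.437 and 0.9171 CPM at 12 months and 1 count over 4 libraries at 3 months. Against tumor conventional CD4 T cells, 32 counts stood beside 1428, a ratio of 0.0109 scaled by library totals (95% interval 0.00745 to 0.0155; edgeR, adjusted p = 1.53e-08). In the spleen, 15 counts in regulatory T cells and 7 in conventional CD4 T cells gave a ratio of 1.64 (95% interval 0.63 to 4.76; edgeR, adjusted p = 0.648). The tumor minus spleen difference was called (edgeR, adjusted p = 0.00177) and was lost without spleen regulatory T cell replicate 4 at 3 months (0.158). Per gene, then, the group with the highest Ccr8 had the least Ccl1 among tumor T cells: 335.3 ± 41.8 CPM of Ccr8 with 0.820 ± 1.89 CPM of Ccl1 in regulatory T cells (SD, n = 8), 100.2 ± 33.6 with 61.6 ± 39.8 CPM in conventional CD4 T cells (n = 6), and 43.1 ± 22.1 with 34.0 ± 19.5 CPM in CD8 T cells (n = 8).

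**Figure D4:**
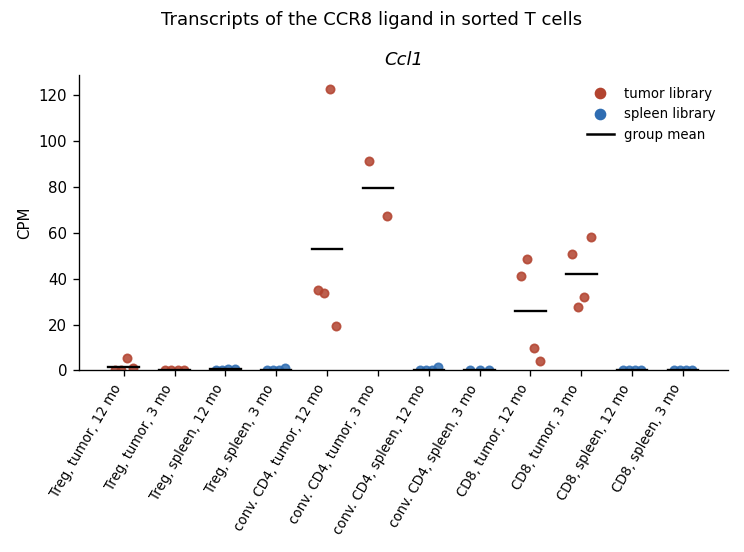
Ccl1 in CPM (linear axis) in every T cell library of tumor and spleen at 12 and 3 months, 1 point per library, with a bar at the group mean. Counts appear in tumor conventional CD4 T cells (19.26 to 122.6 CPM) and tumor CD8 T cells (4.029 to 58.28 CPM), while tumor regulatory T cells stay at or below 5.437 CPM.

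Of the age comparisons within a tissue, only that of Ccr8 in spleen conventional CD4 T cells passed the test among these genes. Ccr8 in spleen conventional CD4 T cells was higher at 12 months, at 8.893 to 17.65 CPM (mean 12.32 ± 3.74, SD, n = 4), against 2.795 to 3.477 CPM at 3 months (mean 3.21 ± 0.363, n = 3), with no overlap. The log2 fold change was 1.76 with a standard error of 0.48 (edgeR, adjusted p = 0.0485), in a comparison where 3.92% of 11726 genes were called. Regulatory T cell markers moved with it: their sum was 854.8 to 1176 CPM at 12 months and 187.5, 591.5 and 227.8 CPM at 3 months, and Foxp3 read 51.72, 74.68, 79.85 and 79.9 CPM at 12 months and 21.18, 44.82 and 31.55 CPM at 3 months. The share of counts on 85 ribosomal protein genes differed as well, at 3.53 to 4.03% at 12 months and 7.85, 4.16 and 10.6% at 3 months. The part of either in the Ccr8 difference was not tested, and the call was lost in 6 of 7 fits that left out 1 library, with adjusted p between 0.0279 and 0.168.

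Of the 20 effector regulatory T cell genes listed with the receptors, 7 were called up with age in the same spleen cells, against 1.96% of all genes up. They included the inhibitory receptor gene Tigit (log2 fold change 2.37), the ectoenzyme gene Nt5e (1.77), the transcription factor gene Ikzf2 (1.63) and the decoy receptor gene Il1r2 (3.63). Ccr4 in these libraries differed by 0.46 with a standard error of 0.41 (edgeR, adjusted p = 0.593). That comparison had 460 called genes in all, and 79 without the pair of ribosome-rich libraries.

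In the tumor the same gate went the other way, without passing the test. Ccr8 was 44.62 to 121.3 CPM in tumor conventional CD4 T cells at 12 months and 127.9 and 132.1 CPM at 3 months, so the libraries did not overlap, and the log2 fold change was -0.62 with a standard error of 0.27 (edgeR, adjusted p = 0.887), where 0.0311% of genes were called. Ccr4 differed by 0.71 (adjusted p = 0.972) and Ccl1 by -0.59 (adjusted p = 1.0). The difference between the age effects of tumor and spleen was called for Ccr8, at -2.42 with a standard error of 0.46 (edgeR, adjusted p = 0.00594), 1 of 3 genes of the axes tested, against 0.668% of all genes. Without the pair of ribosome-rich spleen libraries, which leaves 1 spleen library at 3 months, it was -2.45. Without replicate 4 of every T cell and macrophage group it was -1.9 (edgeR, adjusted p = 0.0565).

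Regulatory T cells gave no call with age. Ccr8 in tumor regulatory T cells averaged 317.5 ± 50.49 CPM at 12 months and 353.2 ± 26.1 CPM at 3 months (SD, n = 4 each), a log2 difference of -0.16 with a standard error of 0.13 (edgeR, adjusted p = 0.999), and Ccr4 differed by -0.24 with a standard error of 0.49. No gene was called there by edgeR (0.0% of 11698), while DESeq2 called 7 and 461 genes had an unadjusted p under 0.05. In spleen regulatory T cells Ccr8 averaged 50.04 ± 8.80 CPM at 12 months and 32.1 ± 9.11 CPM at 3 months, with a log2 difference of 0.63 with a standard error of 0.21 (edgeR, adjusted p = 0.854), and Ccr4 differed by 0.20 with a standard error of 0.48, where 0.0489% of genes were called. The age effects on Ccr8 in tumor and spleen regulatory T cells were -0.80 apart with a standard error of 0.23 (edgeR, adjusted p = 0.985), in a comparison with no called gene (0.0%, with 521 genes at an unadjusted p under 0.05 and 5 called by DESeq2).

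In tumor CD8 T cells, Ccr8 differed with age by -0.81 with a standard error of 0.39, Ccl1 by -0.70 with a standard error of 0.69 and Ccr4 by -0.03 with a standard error of 0.94, all with an edgeR adjusted p of 1.0 and overlapping libraries. Again 0.0% of genes were called by edgeR, with 486 at an unadjusted p under 0.05 and 12 called by DESeq2. The interaction of age and tissue in CD8 T cells called 0.143% of genes and none of the 3 genes of the axes (Ccr8 -0.43 with a standard error of 1.67). In the age comparisons of spleen CD8 T cells and of macrophages in either tissue, none of the 5 genes passed the filter on low counts, so none was tested.

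Ccl17 in tumor dendritic cells averaged 96.06 ± 90.19 CPM at 12 months (SD, n = 3) and 43.47 ± 16.49 CPM at 3 months (n = 4), with overlapping libraries and a log2 difference of 1.20 with a standard error of 0.50 (edgeR, adjusted p = 1.0). Ccl22 averaged 213.1 ± 119.5 CPM at 12 months and 150.5 ± 54.96 CPM at 3 months, with a log2 difference of 0.55 with a standard error of 0.42 (adjusted p = 1.0). No gene was called by edgeR (0.0% of 12090, 158 at an unadjusted p under 0.05, 2 by DESeq2), but without replicate 2 of both ages the Ccl17 difference was 1.57 and was called (adjusted p = 0.0278). Leaving out 1 library at a time, it ran between 0.23 and 1.68 and was not called. In spleen dendritic cells Ccl22 differed by -0.21 with a standard error of 0.32 (edgeR, adjusted p = 0.839), where 0.593% of genes were called. The interaction of age and tissue called no gene by edgeR in dendritic cells (0.0%, 778 at an unadjusted p under 0.05, 3 by DESeq2; Ccl22 0.87 with a standard error of 0.65) nor in macrophages (0.0%, 619 at an unadjusted p under 0.05, 1 by DESeq2; Ccl22 1.42 with a standard error of 1.72).

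**Figure D5:**
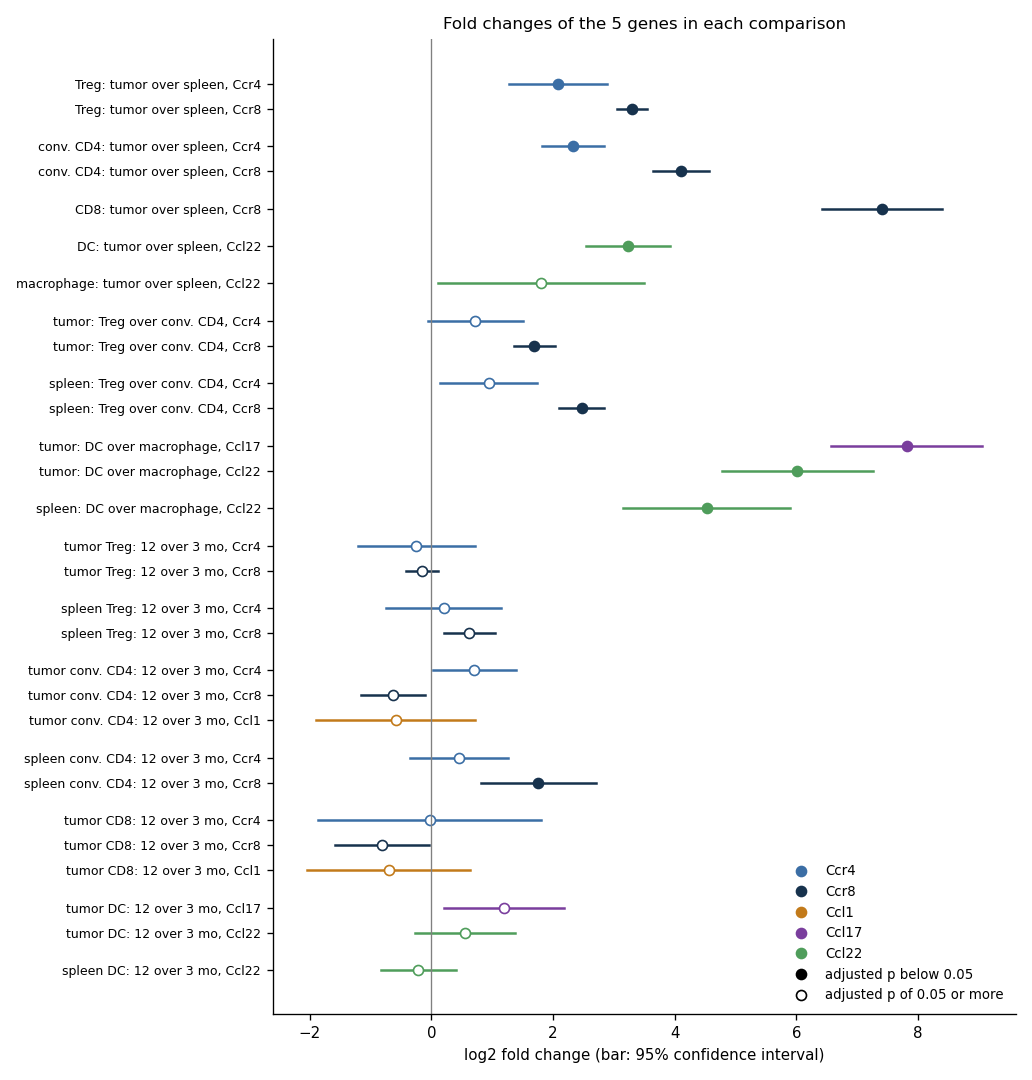
Log2 fold changes of the 5 genes with nominal 95% intervals (bars) in the comparisons where each age and tissue cell of the design held more than 3 counts, filled where the edgeR adjusted p was below 0.05 and open otherwise. The bars come from the standard error and a normal quantile, are narrower than those of the edgeR test, and do not stand in for it. The tissue and cell type comparisons reach 7.41 for Ccr8 in CD8 T cells and 7.81 for Ccl17 in tumor dendritic cells over macrophages, and the only filled age comparison is Ccr8 in spleen conventional CD4 T cells at 1.76.

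The other known partners of the axes were CCL8 (a CCR8 ligand in mice), the atypical receptors ACKR1 and ACKR2, which bind inflammatory chemokines, CCL17 among them, and DPP4, a protease that trims the amino end of CCL22. In dendritic cells all 4 were tested, 1 was called up and 3 down in the tumor (all genes 24.4% up, 22.7% down). Ccl8 averaged 15.0 ± 26.9 CPM in tumor dendritic cells (SD, n = 7), and replicate 2 of each age carried most of it (26.88 CPM in the 12-month library, 71.96 CPM in the 3-month one). The other 5 libraries lay between 0 and 4.128 CPM. The ratio of summed counts to spleen dendritic cells, which held 3 counts, was 206 scaled by library totals (95% interval 70.2 to 1000.0) with replicate 2 and 13.1 (4.15 to 66.7) without it. Replicate 2 of each age also had the most macrophage marker RNA, and the part of that RNA in the Ccl8 level was not tested. In tumor macrophages Ccl8 averaged 32.9 ± 18.2 CPM (SD, n = 8), and in that gate 1 of 2 tested partners rose and 1 fell (all genes 23.9% up, 27.8% down). Ackr1 averaged 0.0623 CPM in tumor dendritic cells and 17.6 ± 3.84 CPM in spleen dendritic cells, and Ackr2 averaged 0.134 CPM in tumor dendritic cells and 11.1 ± 8.26 CPM in spleen dendritic cells (SD, n = 6). In the spleen gate Ackr2 had 18.2 ± 1.89 CPM at 12 months and 3.95 ± 3.85 CPM at 3 months (SD, n = 3 each). Ackr1 had 15.85 ± 2.30 and 19.32 ± 4.75 CPM. B cell markers there summed to 2661 to 3852 CPM at 12 months and 636.6 to 2008 CPM at 3 months. The tumor gate had 14.89 to 39.69 CPM of them. The part of B cell RNA in these levels was not tested. Dpp4 fell in tumor regulatory T cells, to 63.1 CPM on average, against 197.2 CPM in spleen regulatory T cells (log2 fold change -1.40; edgeR, adjusted p = 3.6e-10).

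Genes of effector regulatory T cells were read beside the receptors. Of 20 such genes, 19 were called up and 1 down in tumor regulatory T cells over spleen regulatory T cells, with a median log2 fold change of 2.52, against 25.9% up, 27.6% down and a median of -0.05 over all genes tested. The 4 with the smallest adjusted p were Entpd1, which codes for the ectoenzyme CD39, and 3 costimulatory receptor genes of the TNF receptor family. Tnfrsf9 averaged 2777 ± 370.2 CPM in the tumor and 250.6 ± 34.41 CPM in the spleen (SD, n = 8 each; log2 fold change 3.72), and Entpd1 averaged 582.7 ± 94.0 CPM in the tumor and 60.8 ± 9.08 CPM in the spleen (3.50). The log2 fold change was 2.41 for Tnfrsf4 and 2.24 for Tnfrsf18. Foxp3 itself, which was chosen after its values were seen, averaged 1142 ± 138.9 CPM in the tumor and 1026 ± 103.2 CPM in the spleen, a log2 fold change of 0.40 (edgeR, adjusted p = 0.00119), against 3.30 for Ccr8. Lrrc32, which codes for the TGF-beta docking protein GARP, was the 1 gene that fell (-0.45). The same list had 19 up and 0 down of 20 in conventional CD4 T cells (median 3.11; all genes 16.0% up, 11.2% down) and 18 up and 1 down of 19 tested in CD8 T cells (median 3.87; all genes 22.5% up, 19.6% down). Between regulatory and conventional CD4 T cells, 18 were up and 0 down in the tumor (all genes 22.3% up, 22.2% down) and 16 up and 2 down in the spleen (24.4% up, 20.7% down). These gates were sorted on CD25, which the listed gene Il2ra encodes. Higher regulatory T cell genes in the CD25+ gate were therefore built into the sort, and these counts are a description only.

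Because CCR4 is also carried by T helper 2 cells, 11 genes of that type were read in the conventional CD4 T cells of tumor over spleen. Of 9 tested, 6 were called up and none down, with a median log2 fold change of 1.89, against 16.0% up, 11.2% down and a median of 0.04 over all genes. Gata3, the T helper 2 transcription factor, averaged 564.7 ± 113.0 CPM in the tumor (SD, n = 6) and 284.1 ± 91.7 CPM in the spleen (SD, n = 7), a log2 fold change of 1.14. Il1rl1, the IL-33 receptor, averaged 39.2 ± 30.1 CPM in the tumor and 3.96 ± 2.70 CPM in the spleen (3.23), and the transcription factor genes Maf (2.49) and Irf4 (1.89) also rose. The IL-4 receptor chain gene Il4ra (-0.08; edgeR, adjusted p = 0.792) and the gene of its signal transducer, Stat6 (0.01; adjusted p = 0.984), did not pass the test. The cytokine genes were chosen after their values were seen: Il5 and Il13 averaged 9.09 ± 8.52 and 7.34 ± 13.7 CPM in the tumor and had no count in the spleen, and Il4 averaged 15.8 ± 20.7 CPM in the tumor and 6.42 ± 4.20 CPM in the spleen without passing the test (0.43; edgeR, adjusted p = 0.598). The rise of the list was not particular to this gate. Tumor over spleen, 4 of 6 tested were up and 1 down in CD8 T cells (all genes 22.5% up, 19.6% down). Regulatory T cells also had 4 up and 1 down of 6 (25.9% and 27.6%), dendritic cells 4 and 0 of 6 (24.4% and 22.7%). Macrophages had 2 and 1 of 7 (23.9% and 27.8%). The conventional CD4 gate held regulatory T cell marker RNA, whose part in these genes was not tested.

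Of 17 genes of mature migratory dendritic cells, the state in which CCL17 and CCL22 are usually made, 11 were called up and 1 down in tumor dendritic cells over spleen dendritic cells, with a median log2 fold change of 0.72, against 24.4% up, 22.7% down and a median of -0.04 over all genes tested. Il12b, the p40 subunit gene of IL-12 and IL-23, averaged 98.8 ± 19.1 CPM in the tumor (SD, n = 7) and 12.3 ± 5.60 CPM in the spleen (SD, n = 6), a log2 fold change of 3.37. Cd86, a costimulatory ligand, averaged 464.7 ± 57.4 CPM in the tumor and 182.8 ± 38.4 CPM in the spleen (1.68), and Cd274, which codes for PD-L1, averaged 232.4 ± 46.4 CPM in the tumor and 127.7 ± 23.1 CPM in the spleen (1.18). Relb, an NF-kB subunit, was the gene that fell (-1.49), and Traf1 (-0.52; edgeR, adjusted p = 0.194) and Samsn1 (0.13; adjusted p = 0.5) did not pass the test. Between dendritic cells and macrophages in the tumor, 12 were up and 0 down of 17, with a median of 1.66 (all genes 23.9% up, 22.0% down). The rise of this list was not particular to dendritic cells. Tumor over spleen, 9 of 17 were up and 2 down in macrophages, with a median of 1.07 (all genes 23.9% up, 27.8% down). CD8 T cells had 10 and 1 of 12 (22.5% and 19.6%), and conventional CD4 T cells 8 and 3 of 14 (16.0% and 11.2%). Regulatory T cells had 7 and 4 of 15 (25.9% and 27.6%).

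Known upstream genes of Ccl17 and Ccl22 moved in both directions in tumor dendritic cells over spleen dendritic cells: 6 of 12 were called up and 1 down, with a median of 0.36. Over all genes tested, 24.4% were up and 22.7% down. Il4ra averaged 253.6 ± 24.3 CPM in the tumor (SD, n = 7) and 74.3 ± 10.4 CPM in the spleen (SD, n = 6), a log2 fold change of 2.11. Csf2rb, a chain of the GM-CSF receptor, averaged 1200.0 ± 165.0 CPM in the tumor and 443.7 ± 85.6 CPM in the spleen (1.77), with 1.67 for its partner chain Csf2ra. Klf4, a transcription factor, averaged 338.0 ± 114.8 CPM in the tumor and 47.9 ± 18.5 CPM in the spleen (3.13). The NF-kB family genes Rel (0.39; edgeR, adjusted p = 0.181) and Nfkb2 (-0.23; adjusted p = 0.283) did not pass the test, and Nfkb1 was the gene that fell (-0.90). Between dendritic cells and macrophages in the tumor, 6 were up and 3 down (all genes 23.9% up, 22.0% down), with Klf4 higher (2.30) and Il4ra (-1.86) and Stat6 (-1.04) lower in dendritic cells.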

How the data were processed

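RNA of 74 libraries was measured by Smart-seq2 under a consortium pipeline. Per the submitters' processing notes, reads were aligned with STAR 2.5.3 to mm10 and counted with featureCounts; neither an annotation release nor a strand setting is given in the sources used here. The deposited values are raw counts of reads per gene, 1 column per library, and the table held 0 columns of no listed sample. From these counts CPM was computed on each library's total. Groups follow the titles. None of 103 pairs of replicate libraries was identical.

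Tests used edgeR 4.0.16 (filterByExpr with its default smallest count of 10, TMM, quasi-likelihood with robust fitting, limma 3.58.1, R 4.3.3) on all genes that passed the filter, with Benjamini-Hochberg adjustment and a threshold of 0.05. Tissue and interaction contrasts were fitted on the 4 age and tissue groups of a cell type, and age contrasts on the 2 groups of 1 tissue; the regulatory against conventional CD4 and the dendritic cell against macrophage comparisons were fitted in models of both types. Dendritic cell fits carried sex as a covariate, since replicate 1 of each group was male (4 male and 70 female libraries). Intervals of log2 fold changes were taken from the standard error and a normal quantile, so they are narrower than those of the quasi-likelihood test. Where a group of the contrast held 3 counts or fewer at one age, no fitted fold is printed; the ratio of summed counts, scaled by library totals, is given with its exact 95% interval, which covers counting error only.

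Alternatives were DESeq2 1.42.0, its size factors, no low-count filter, a replicate block, age contrasts taken from the fit of all 4 groups, no sex covariate, and leaving out libraries. Same-numbered libraries deviated together in every pair (correlations of 0.1184 to 0.3737, above 0.1) only for tumor regulatory T cells across ages, and the block changed no call of these genes there; nothing states that the numbers pair animals. Only the edgeR fit of tumor over spleen in regulatory T cells was tested on simulated data, and the other fits were not. Motifs were searched in RefSeq promoters trimmed to the 250 bases before the start, and coordinates of gene spans are those of GENCODE M21. The start sites of these sources differ for Ccr4, Ccr8, Ccl1 and Ccl22, whose windows lie partly or wholly inside the spans. The 5 genes and all gene lists were chosen with earlier results of these data known. The 5 genes are named in every comparison that tests them; of a list, the called genes with the smallest adjusted p (at most 4) and the most abundant uncalled genes (at most 2) are named, besides genes said to have been chosen after their values were seen; 1 listed gene that this rule names is not reported here. Patterns most like each gene were ranked by Pearson's r over 20 group means of log2(CPM + 1).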

Additional observations from a re-analysis of the deposited data

Results flagged for a closer look

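In 3 of 20 tests 1 library stood apart from the others of its group by Dixon's test at the 95% level, where chance gives about 1 in 20; each test took 1 gene in 1 group of 4 libraries with a mean of at least 5 CPM. Ccr4 read 130.8 CPM in replicate 4 of tumor regulatory T cells at 12 months, where the others had 54.37 to 65.28 CPM, and 208.0 CPM in replicate 4 at 3 months, where the others had 49.5 to 54.17 CPM. Replicate 4 held the highest Ccr4 in 8 of the 10 T cell groups that have one and average at least 1 CPM of Ccr4, and the highest Ccr8 in 3 of 9 groups chosen likewise. It also had the lowest T cell marker sum of each tumor T cell group that has one. In tumor regulatory T cells that sum was 5468 CPM at 12 months and 5456 CPM at 3 months, where the others had 6693 to 7965 CPM. In the spleen it was the lowest only in regulatory T cells at 3 months. The part of this in the Ccr4 levels was not tested. Ccl1 read 122.6 CPM in replicate 3 of tumor conventional CD4 T cells at 12 months, where the others had 19.26 to 35.0 CPM.

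Each of 4 effects differed between tissues by a test of the difference itself, and each lost its call in some fit that left out libraries. The age difference of Ccr8 in conventional CD4 T cells was -2.42 on the log2 scale in tumor minus spleen (edgeR, adjusted p = 0.00594). The regulatory over conventional CD4 difference of Ccr8 was -0.77 in tumor minus spleen (edgeR, adjusted p = 0.0398), and that of Ccl1 had an adjusted p of 0.00177. The dendritic cell over macrophage difference of Ccl17 had an adjusted p of 0.000536.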

How the results depend on the processing

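Of 46 results on the 5 genes, 27 kept their direction and their side of the threshold under every alternative run; 266 of 284 alternatives that did not leave out 1 library, and 706 of 749 that did, kept both. DESeq2 size factors moved no log2 fold change by more than 0.05. With no low-count filter, Ccl22 was called in tumor over spleen macrophages (1.82, adjusted p = 0.00643) and in the tumor minus spleen difference of dendritic cells over macrophages (1.5, 0.000511), and Ccr8 with age in spleen conventional CD4 T cells was not (1.78, 0.0551). Under the replicate block, whose numbers are not known to pair animals, Ccr8 with age there was 1.74 (0.103), Ccr4 with age in tumor CD8 T cells was 0.57, reversed, and Ccr4 in spleen regulatory over conventional CD4 T cells was called (0.92, 0.00514), as it was by DESeq2 (0.93, 0.0398). Without tumor dendritic cell replicate 2 of both ages, Ccl17 with age was 1.57 (0.0278). Without the pair of libraries of conflicting labels, which leaves 1 library at 3 months, Ccl22 with age in spleen dendritic cells was 0.19, reversed. Without replicate 4 of every T cell and macrophage group, an alternative chosen after seeing the data, Ccr4 with age was 0.19 in tumor regulatory T cells and 1.0 in tumor CD8 T cells, both reversed; Ccr8 was -1.9 (0.0565) in the conventional CD4 interaction of age and tissue and 1.48 (0.418) with age in the spleen; and the adjusted p was 0.0518 for Ccr4 in tumor over spleen CD8 T cells and 0.204 for Ccl1 in the tumor minus spleen difference of regulatory over conventional CD4 T cells. Leaving out the pair of ribosome-rich spleen libraries, which earlier results of these data had pointed out, leaves 1 library in the 3-month group, so only effect sizes are given. Ccr8 was then -2.45 in the interaction, 1.8 with age in the spleen and -0.77 in the regulatory over conventional CD4 difference. On TMM sizes, 2 of 38 group levels moved by more than 1 SD: Ccr8 in spleen regulatory T cells at 12 months (41.1) and in tumor conventional CD4 T cells at 3 months (124).

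Leaving out 1 library at a time, log2 differences with age ran between 0.23 and 1.68 for Ccl17 in tumor dendritic cells, 1.54 and 1.89 for Ccr8 in spleen conventional CD4 T cells, -0.42 and 0.17 for Ccl22 in spleen dendritic cells, -0.03 and 0.99 for Ccl22 in tumor dendritic cells, -0.1 and 0.89 for Ccr4 in spleen regulatory T cells, -0.63 and 0.58 for Ccr4 in tumor regulatory T cells, and -0.89 and 1.87 for Ccr4 in tumor CD8 T cells. Interactions of age and tissue ran between -2.12 and 2.77 (Ccr8, CD8 T cells), -0.23 and 0.85 (Ccr4, conventional CD4 T cells) and -1.13 and 0.35 (Ccr4, regulatory T cells). Regulatory over conventional CD4 T cells ran between 0.61 and 1.1 for Ccr4 in the spleen (called in 2 of the fits), and in tumor minus spleen between -0.63 and 0.11 for Ccr4, between -0.89 and -0.64 for Ccr8, and between adjusted p values of 9.26e-06 and 0.158 for Ccl1. Ccl17 in the tumor minus spleen difference of dendritic cells over macrophages ran between adjusted p values of 0.000161 and 1.0. Ccl22 in tumor over spleen macrophages ran between 0.72 and 2.37, and was called without spleen macrophage replicate 1 at 12 months. Where a cause is not named by the setting, it was not tested.

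Counts of called genes over all genes moved by more than 1.5 times in some settings. Without the ribosome-rich libraries, conventional CD4 T cells had 2465 called genes in tumor over spleen, 43 in the interaction, 79 with age in the spleen, and the tumor minus spleen difference of regulatory over conventional CD4 T cells had 883, against 3990, 98, 460 and 1586 with all libraries. Without the pair of conflicting labels, tumor over spleen dendritic cells had 4375, against 6583. Age comparisons and interactions with few calls gave more calls with no filter and by DESeq2: 839 and 881 with age in spleen conventional CD4 T cells, 261 and 200 in their interaction (98 by edgeR), 51 and 40 with age in the tumor (4), 425 and 303 with age in spleen dendritic cells (75), 56 and 26 in spleen regulatory T cells (6) and 81 and 48 in the CD8 interaction (19). With all 4 groups in one fit, no gene was called with age in spleen dendritic cells, and with no sex covariate 47; in one fit, Ccr8 with age in spleen conventional CD4 T cells was 1.78 (0.00456). Under the replicate block the count was 116 with age in tumor conventional CD4 T cells, 153 in spleen dendritic cells, 12 in spleen regulatory T cells and 37 in the CD8 interaction. The limits of this design are few libraries per group, 2 in one of them, low counts of Ccl1 and Ccl17 outside the tumor, which depth does not resolve, and gates that share marker RNA.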

Other observations

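Other chemokine receptors changed beside Ccr4 and Ccr8 in tumor T cells. Of 17 other receptor genes, 14 were tested in regulatory T cells, and 9 were called up and 3 down in tumor over spleen, with a median log2 fold change of 3.71 (all genes 25.9% up, 27.6% down). Cxcr6, the receptor for CXCL16, averaged 652.7 ± 214.1 CPM in tumor regulatory T cells and 11.8 ± 7.63 CPM in spleen regulatory T cells (SD, n = 8 each; log2 fold change 6.03), and Ccr1 (6.32) and Ccrl2 (3.80) also rose. The 3 that fell, named after their values were seen, were the lymph node homing receptor gene Ccr7 (51.5 ± 34.1 CPM in the tumor and 719.9 ± 75.5 CPM in the spleen, -3.58), the follicle homing receptor gene Cxcr5 (-2.46) and the gut homing receptor gene Ccr9 (-2.09). Ccr6 (-1.59; edgeR, adjusted p = 0.0839) and Cxcr4 (-0.32; adjusted p = 0.433) did not pass the test. In conventional CD4 T cells 11 of 15 tested receptors were up and 3 down (all genes 16.0% and 11.2%), and in CD8 T cells 8 of 14 were up and 3 down (all genes 22.5% and 19.6%).

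Other chemokine ligands were higher in tumor dendritic cells as well: of 30 genes, 22 were tested, 18 were called up and 1 down, with a median of 4.19 (all genes 24.4% up, 22.7% down). Cxcl16 averaged 1310.0 ± 243.3 CPM in tumor dendritic cells (SD, n = 7) and 120.7 ± 27.1 CPM in spleen dendritic cells (SD, n = 6; log2 fold change 3.75), and Cxcl10, a CXCR3 ligand, averaged 374.1 ± 124.8 CPM in the tumor and 18.9 ± 7.37 CPM in the spleen (4.72). Cxcl2, a neutrophil attractant, averaged 173.3 ± 65.0 CPM in the tumor and 0.567 ± 0.914 CPM in the spleen, and Ccl24, an eosinophil attractant, 96.0 ± 96.6 CPM in the tumor and 0.137 ± 0.218 CPM in the spleen. Ccl5 (-0.24; edgeR, adjusted p = 0.132) and Xcl1 (1.44; adjusted p = 0.239) did not pass the test. In macrophages 15 of 20 tested ligands were up and 2 down (all genes 23.9% up, 27.8% down).

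Patterns over the 20 group means were compared with those of 10662 genes, as a description of groups that share libraries. The pattern nearest to that of Ccr8 was that of Ctla4 (Pearson's r = 0.991), followed by Tigit (0.979), Ndfip1 (0.969), Crmp1 (0.967) and Penk (0.965). Their highest groups were not all the same: Ctla4 peaked in tumor conventional CD4 T cells at 3 months (89.99 CPM), and Ccr8 in tumor regulatory T cells. Ccr4 was nearest to Ncmap (0.98), B4galnt4 (0.97), Penk (0.964), Ankrd6 (0.951) and Foxp3 (0.948), and Ccr4 and Ccr8 correlated at 0.929. Ccl1 was nearest to the cytokine genes Il2 (0.945) and Csf2 (0.939), which code for IL-2 and GM-CSF, and then to Slc17a6 (0.922), Gldc (0.913) and Bace2 (0.912). Ccl17 was nearest to Plet1 (0.981), Dcstamp (0.938), Grasp (0.924), Slc27a3 (0.9) and Pmvk (0.881), Ccl22 to Il12b (0.984), Apod (0.978), Basp1 (0.952), Gsg1 (0.947) and Pmvk (0.937), and the CCR4 ligands correlated with each other at 0.807. Ccl1 correlated with Ccr8 at 0.575.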
